A study of Mus musculus with 6 samples.

Results

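The activin system of the mouse basolateral amygdala was followed through 9 genes: the activin subunits Inhba and Inhbb, the antagonist follistatin (Fst), the type II receptors Acvr2a and Acvr2b, the type I receptors Acvr1b and Acvr1, and the signal carriers Smad2 and Smad3. They were taken by symbol from the 26264 symbols counted in each library, and all 9 were present and passed the filter on low counts. Libraries came from 3 male mice under chronic restraint stress (CRS), in which an animal is repeatedly held immobile, and from 3 unstressed male mice (Ctrl). Each library holds total RNA of the dissected tissue after removal of ribosomal RNA, and the design text calls the libraries biological replicates. The labels give no strain, age or length of restraint. The family was selected on earlier results of these data for CRS against Ctrl, in which Inhba stood out, and Inhba ranked 5 of 14739 tested genes by unadjusted p. The differences between these groups are therefore described below with no test of the members.

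Activins are dimers of beta subunits, and Inhba encodes the subunit of activin A, Inhbb that of activin B. A dimer binds a type II receptor, which recruits and phosphorylates a type I receptor, and the type I receptor phosphorylates Smad2 and Smad3, which enter the nucleus with Smad4. Follistatin binds activins outside the cell and keeps them from their receptors. In the rodent brain, neuronal activity induces Inhba, and activin A is known for effects on excitatory synapses, on anxiety-like behaviour and on neuronal survival after injury.

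The regions before the starts of the subunit genes are shown because Inhba and Inhbb encode the 2 activin subunits among the members. Each is the 250 bases before the RefSeq start on the gene's strand (GRCm38.p6, an earlier build than the mm39 named for the counts). The Inhba region lies at chr13:16011601-16011850 on the plus strand and the Inhbb region at chr1:119422249-119422498 on the minus strand. Capitals mark CpG dinucleotides, the sites of DNA methylation in mammals.
Inhba: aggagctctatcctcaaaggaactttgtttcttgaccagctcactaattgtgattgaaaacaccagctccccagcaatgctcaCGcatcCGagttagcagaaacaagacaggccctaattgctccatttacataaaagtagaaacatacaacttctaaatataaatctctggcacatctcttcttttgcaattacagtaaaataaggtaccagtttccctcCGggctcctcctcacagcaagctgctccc
Inhbb: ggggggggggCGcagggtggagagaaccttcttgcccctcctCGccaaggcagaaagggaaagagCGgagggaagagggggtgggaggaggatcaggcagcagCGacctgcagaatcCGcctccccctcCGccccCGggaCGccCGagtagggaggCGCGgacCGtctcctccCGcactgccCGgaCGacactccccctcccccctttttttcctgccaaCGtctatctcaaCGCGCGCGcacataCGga

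The Inhba region held 3 CpGs and 43.2% G and C, and the Inhbb region held 21 CpGs and 68.0%. The median of 32851 mouse promoters of the same length was 6 CpGs and 52.4%. RefSeq regions were at hand for 7 of the 9 members, and the other 5 of them, those of Acvr2a, Acvr2b, Acvr1b, Acvr1 and Smad3, held 22 to 49 CpGs and 69.2 to 85.6% G and C. Among these 7 regions, Inhba's was the only one below the median of all promoters in CpGs and in G and C. It was also the only one with the letters TATAAA on either strand, which began at position -91 from the start. Of all promoters, 12.4% held these letters. The core letters TGACG of the cAMP response element, searched on both strands because Inhba is known as an activity-induced gene, were in none of the 7 and in 17.8% of all promoters. The glucocorticoid response element, searched as GNACA, any 3 bases and TGTNC, was in none of the 7 and in 0.387% of all. The letters GTCTG, a core that Smad proteins bind, were on either strand in the Acvr2a and Acvr2b regions and in 42.2% of all. These matches describe letters in these windows only.

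Counts in genes ranged from 9859449 to 10233706 per library. Levels are given as CPM, the count of a gene scaled to a common library size. Excitatory neuron markers summed to 2565 to 2967 CPM in CRS and 2047 to 2913 CPM in Ctrl, among them the vesicular glutamate transporter Slc17a7 at 718 to 1183 CPM over the 6 libraries. Some libraries stood apart in dissection markers. The mean log2 level of 16 striatal and central amygdala markers, relative to the Ctrl mean, was -2.58 in CRS 1 and -0.46 to 0.54 in the other 5 libraries. Fibcd1, a dentate gyrus and hippocampal marker named after its values were seen, was at 132 CPM in CRS 1 and 6.15 to 16.3 CPM in the other 5. The mean level of its list in CRS 1, -0.17, lay within the range of the other libraries. Ttr, the main transcript of choroid plexus, was at 2125 to 5545 CPM in CRS 2, Ctrl 1 and Ctrl 2 and at 2.87 to 18.9 CPM in the other 3.

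Among the ligands, Inhba was lower in the CRS libraries and Inhbb did not differ in 1 direction. Inhba was measured at 3.69, 4.63 and 4.17 CPM in CRS 1 to 3, against 7.34, 6.68 and 8.06 CPM in Ctrl 1 to 3. All CRS values lay below all Ctrl values, with 4.16 ± 0.468 CPM in CRS and 7.36 ± 0.690 CPM in Ctrl (SD, n = 3 each). The log2 fold change, CRS minus Ctrl, was -0.82 ± 0.17 (SE), or 0.566 times the Ctrl level, with a 95% interval from -1.20 to -0.44. The interval takes no account of the choice of the family on these same values, and it is not read as a test. The fold change rests on 36, 46 and 42 counts in CRS and 74, 69 and 79 counts in Ctrl. Counting error alone gave 95% Poisson intervals of 3.39 to 6.17 CPM for CRS 2, the highest CRS library, and 5.20 to 8.46 CPM for Ctrl 2, the lowest Ctrl library, so these 2 intervals overlap. In bulk tissue, fewer cells that express a gene and less of its RNA per cell cannot be told apart.

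Inhba was the only one of the 9 members whose groups did not overlap, and 8.28% of all 14739 tested genes had groups that did not overlap. It was also the only member with an unadjusted p under 0.05, by which the family was chosen, and 496 tested genes (3.37%) had one. No gene passed the adjusted threshold of 0.05 in edgeR's quasi-likelihood test (0% of tested genes, smallest adjusted p = 0.997), and so none of the 9 did. DESeq2 called 2 genes, edgeR's likelihood ratio test 4 and limma-voom 0, with no member among them. With each library left out in turn, the Inhba value stayed between -0.90 and -0.74. Every CRS value lay below every Ctrl value, so its sign could not turn, and this is no further support for the difference.

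**Figure D1:**
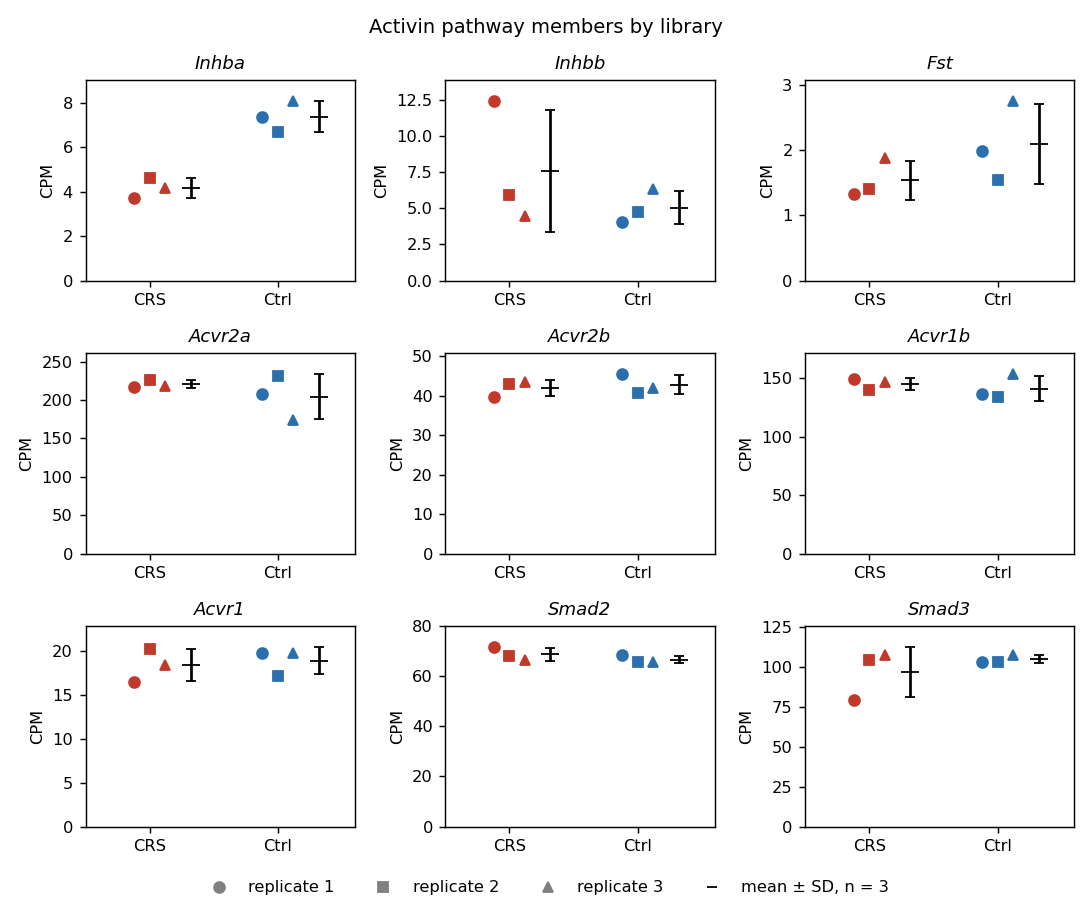
CPM of each member (vertical axes, from 0) in the 3 CRS and the 3 Ctrl libraries, with point shapes for replicates 1 to 3 and bars for the mean ± SD. The Inhba points are separate, with CRS at 3.69 to 4.63 CPM and Ctrl at 6.68 to 8.06 CPM, and in the 8 other panels the groups overlap.

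Inhbb was measured at 12.4, 5.93 and 4.46 CPM in CRS 1 to 3, against 4.07, 4.74 and 6.33 CPM in Ctrl 1 to 3. CRS 1 alone was high, and the other CRS libraries lay within the Ctrl range. The means were 7.60 ± 4.23 CPM in CRS and 5.05 ± 1.16 CPM in Ctrl (SD, n = 3 each), and the log2 fold change was 0.59 ± 0.40 (SE, 95% interval -0.36 to 1.54). Without CRS 1 it was 0.04 ± 0.25. The count in CRS 1 was 121, with a Poisson interval of 10.3 to 14.8 CPM that lies above every other library's value. CRS 1 was also the library with the lowest striatal and central amygdala level. Of the 11 excitatory neuron markers, Rspo2, a secreted Wnt activator, was at 40.8 CPM in CRS 1, at 14.7 and 12.9 CPM in the other CRS libraries and at 12.01 to 23.2 CPM in Ctrl, and it was named after its values were seen. The part of these markers in the Inhbb value was not tested beyond fits with a marker list's level as a covariate. With the striatal and central amygdala level, Inhbb was at -0.18 ± 0.26. With the choroid plexus and oligodendrocyte levels it was at 0.36 ± 0.41 and 0.10 ± 0.43. With the meningeal level, added after seeing the data, it was at 0.11 ± 0.59.

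The balance of the subunits was taken within each library as the ratio of counts per kilobase of exon, Inhba over Inhbb. It was 0.198, 0.519 and 0.621 in CRS 1 to 3, against 1.202, 0.938 and 0.848 in Ctrl 1 to 3. The mean was 0.446 ± 0.221 in CRS and 0.996 ± 0.184 in Ctrl (SD, n = 3 each). The groups were separate, and the ratio contains the Inhba difference that chose the family. Inha, the alpha subunit that turns a beta subunit into an inhibin, was at 26.3 ± 1.15 CPM in CRS and 26.0 ± 1.31 CPM in Ctrl, a log2 fold change of 0.01 ± 0.08. Inhbc and Inhbe, the remaining beta subunits, had at most 4 counts in any library and were not tested.

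Follistatin was the member with the fewest counts, 13 to 19 in CRS and 16 to 27 in Ctrl. Fst was measured at 1.33, 1.41 and 1.88 CPM in CRS 1 to 3, against 1.98, 1.55 and 2.76 CPM in Ctrl 1 to 3. CRS 3 lay above Ctrl 2, so the groups overlapped, and Ctrl 3 was the highest library. The log2 fold change was -0.43 ± 0.31 (SE, 95% interval -1.16 to 0.29), and without Ctrl 3 it was -0.19 ± 0.33.

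The type II receptors, which bind the ligand first, had smaller log2 fold changes than the ligands. Acvr2a was measured at 217, 226 and 218 CPM in CRS 1 to 3, against 208, 232 and 174 CPM in Ctrl 1 to 3. Ctrl 3 was the low library, and Ctrl 2 lay above every CRS library. The log2 fold change was 0.11 ± 0.10 (SE, 95% interval -0.12 to 0.34), and it was 0.0036 without Ctrl 3 and 0.22 without Ctrl 2. Some of the Acvr2a exons overlap those of Orc4, an origin recognition complex gene on the opposite strand, and the labels do not say whether the counting used strand. Acvr2b was measured at 39.6, 42.9 and 43.4 CPM in CRS 1 to 3, against 45.5, 40.8 and 42.0 CPM in Ctrl 1 to 3. The groups overlapped, and the log2 fold change was -0.03 ± 0.08 (95% interval -0.20 to 0.15).

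Of the type I receptors, Acvr1b encodes ALK4, the main type I receptor for activins, and Acvr1 encodes ALK2, which mainly carries signals of bone morphogenetic proteins. Acvr1b was measured at 149, 139.9 and 147 CPM in CRS 1 to 3, against 136, 134 and 154 CPM in Ctrl 1 to 3. All CRS values lay inside the Ctrl range. The log2 fold change was 0.04 ± 0.07 (95% interval -0.12 to 0.21). Acvr1 was measured at 16.5, 20.2 and 18.4 CPM in CRS 1 to 3, against 19.8, 17.1 and 19.8 CPM in Ctrl 1 to 3. The CRS libraries held both the lowest and the highest value, and the log2 fold change was -0.04 ± 0.11 (95% interval -0.30 to 0.22).

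Smad2 and Smad3 are the transcription factors that activin receptors phosphorylate. Smad2 was measured at 71.6, 68.0 and 66.6 CPM in CRS 1 to 3, against 68.4, 65.7 and 65.8 CPM in Ctrl 1 to 3. It had the smallest spread within groups of the 9 members, 0.04 on the log2 scale against a median of 0.15 over all tested genes. Its log2 fold change was 0.04 ± 0.06 (95% interval -0.10 to 0.19). Smad3 was measured at 78.9, 104 and 107 CPM in CRS 1 to 3, against 103, 103 and 107 CPM in Ctrl 1 to 3. CRS 1 alone was low, and the other 5 libraries lay within 103 to 107 CPM. The log2 fold change of Smad3 was -0.11 ± 0.11 (95% interval -0.37 to 0.15), and without CRS 1 it was 0.01 ± 0.07. CRS 1, the library that stood apart in striatal markers, held the lowest or the highest of the 6 values for 7 of the 9 members. Ctrl 3 did so for 5. How often these libraries did so over all tested genes was not counted, so this is not read as a trait of the members.

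**Figure D2:**
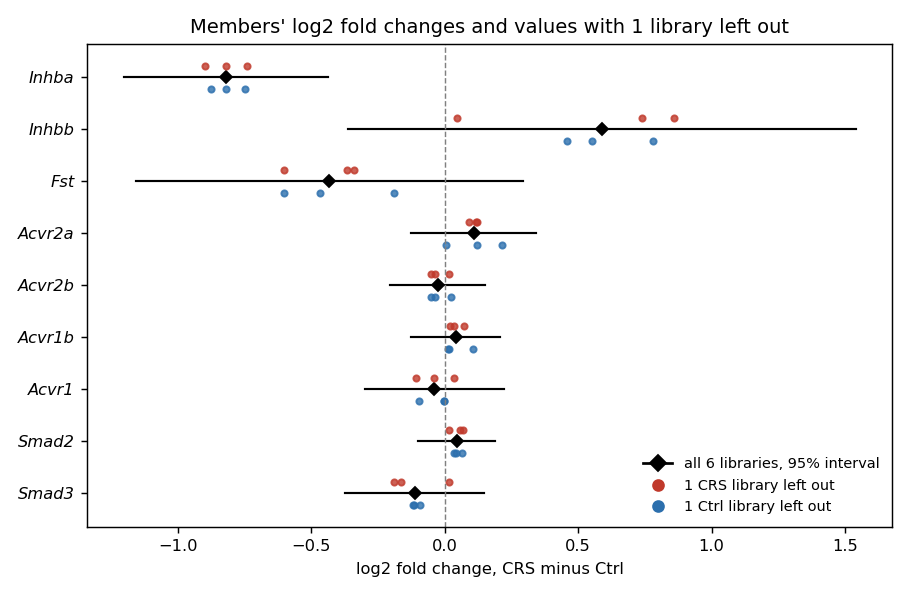
Log2 fold change of each member, CRS minus Ctrl (horizontal axis), with diamonds and lines for the value and 95% interval from all 6 libraries and points for values with 1 library left out. The Inhba points stay between -0.90 and -0.74, whereas 1 Inhbb point, without CRS 1, lies at 0.04.

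Over the 9 members, 5 log2 fold changes were below 0 and 4 above. Their median was -0.03, against -0.0044 over all tested genes, of which 51.6% were below 0. Apart from the ligands and follistatin, the 6 receptor and Smad genes had log2 fold changes from -0.11 to 0.11. Their 95% intervals spanned -0.37 to 0.34.

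Per kilobase of exon, the receptors and Smads stood above the ligands and their antagonist. Over the 6 libraries, Acvr2a was at 37.4 ± 3.63, Acvr1b at 32.5 ± 1.75 and Smad3 at 18.2 ± 1.95 CPM per kilobase (SD, n = 6). Lower in the order came Acvr2b at 10.8 ± 0.528, Smad2 at 7.71 ± 0.252 and Acvr1 at 3.86 ± 0.319 CPM per kilobase. The lowest were Inhbb at 1.49 ± 0.730, Inhba at 0.902 ± 0.287 and Fst at 0.396 ± 0.115 CPM per kilobase. The ranges over libraries of neighbours in this order overlapped for Acvr2a and Acvr1b, for Inhbb and Inhba, and for Inhba and Fst, and not for the other neighbours. Exon lengths came from the GENCODE M21 annotation, of another build than the counts, and a level per kilobase depends on which exons are used in this tissue.

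**Figure D3:**
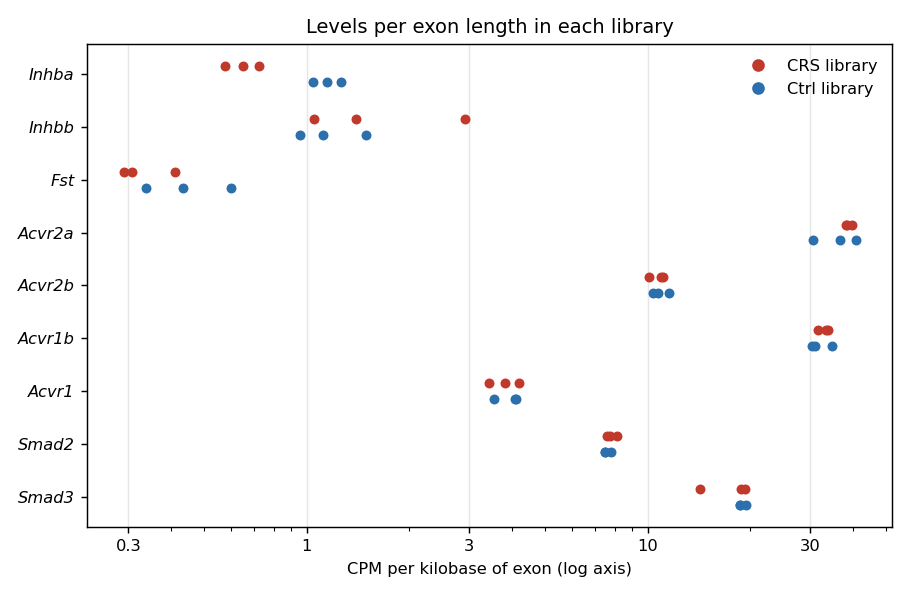
CPM per kilobase of exon (horizontal log axis) of each member in each library, with CRS points above Ctrl points. Receptors and Smads lie between 3.418 and 40.8 CPM per kilobase and the ligand subunits and Fst between 0.290 and 2.92.

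Within each receptor pair the same gene led in all 6 libraries. The ratio of Acvr2a over Acvr2b per kilobase was 3.63 ± 0.159 in CRS and 3.31 ± 0.552 in Ctrl (SD, n = 3 each), and was above 1 in 6 of 6 libraries. The ratio of Acvr1 over Acvr1b was 0.116 ± 0.0156 in CRS and 0.122 ± 0.00880 in Ctrl, and was above 1 in 0 of 6. The ratio of Smad2 over Smad3 was 0.459 ± 0.0986 in CRS and 0.402 ± 0.0158 in Ctrl, and was above 1 in 0 of 6, with CRS 1 highest at 0.572. These 3 pairs overlapped between the groups.

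The wider superfamily was read from 8 lists of 61 genes that hold no member, of which 47 were tested. None of the 47 passed the threshold in either direction (edgeR), 33 lay below 0 and 14 above, with a median log2 fold change of -0.07. With each library left out in turn, 22 of the 47 kept their sign (16 below 0 and 6 above) and 25 turned at least once. The groups did not overlap for 5 of them with CRS lower, where 4.48% of all tested genes did so, and for 1 with CRS higher, where 3.80% did. Those with CRS lower were Acvr1c, Tgfbr1, Tgfb3, Bmp5 and Smad9, and the 1 with CRS higher was Trim33, and Tgfbr1 and Trim33 were named after their values were seen.

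Acvr1c, which encodes ALK7, a type I receptor for activin B and nodal, had the lowest log2 fold change of the 5 tested among the other type I and type II receptors of the superfamily. It was measured at 29.8, 53.2 and 50.9 CPM in CRS 1 to 3, against 68.2, 60.03 and 56.2 CPM in Ctrl 1 to 3. CRS 1 was far the lowest library, and the log2 fold change was -0.46 ± 0.22 (SE), or -0.24 without CRS 1. The others were Acvrl1, the endothelial type I receptor ALK1, at -0.25 ± 0.18, Bmpr1b at -0.14 ± 0.09, Bmpr1a at -0.05 ± 0.08 and the type II receptor Bmpr2 at 0.05 ± 0.08. Among TGF-beta ligands and their receptors, 4 of 5 lay below 0, of which 3 stayed below 0 with every library left out. The values ran from Tgfb3 at -0.36 ± 0.14 to Tgfb2 at 0.13 ± 0.40, with the type I receptor Tgfbr1 at -0.16 ± 0.08. Tgfb2 turned below 0 without CRS 2 or Ctrl 3.

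Of 11 tested antagonists and co-receptors, 6 lay below 0 and 5 above, and the groups overlapped for all 11. The highest was Lefty2, a nodal antagonist, at 1.43 ± 0.75 from 4.82, 1.21 and 1.29 CPM in CRS 1 to 3 against 0.397, 1.65 and 0.612 CPM in Ctrl 1 to 3, and it was 0.48 without CRS 1. Only 4 of the 11 kept their sign with every library left out. Chordin (Chrd), which binds bone morphogenetic proteins, was at 0.61 ± 0.43, and at 0.0090 without CRS 1. The follistatin-like genes Fstl5, Fstl1 and Fstl4 were at 0.15 ± 0.16, 0.07 ± 0.18 and -0.09 ± 0.33, the co-receptor Tgfbr3 at -0.07 ± 0.26 and Igsf1 at -0.48 ± 0.34. Without CRS 1, Fstl1 was at -0.17, Fstl4 at 0.23 and Tgfbr3 at 0.09, and without Ctrl 3 Fstl5 was at 0.0030. CRS 1 was thus the highest library for Lefty2 and Chrd, as it was for Inhbb.

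All 6 other Smad genes lay below 0 in the fit to all 6 libraries, and the groups overlapped for all but Smad9. Smad4, the common partner of Smad2 and Smad3, was at -0.07 ± 0.06, the inhibitory Smad7 and Smad6 at -0.22 ± 0.12 and -0.01 ± 0.39, and the Smads of bone morphogenetic protein signalling at -0.09 ± 0.13 for Smad5, -0.05 ± 0.13 for Smad1 and -0.16 ± 0.11 for Smad9. Of these, Smad6 turned above 0 without CRS 1, CRS 3, Ctrl 1 or Ctrl 2, Smad1 without CRS 1 or Ctrl 1, and Smad5 without CRS 1. Among 9 tested partners of Smad2 and Smad3, Pmepa1, a target and inhibitor of the pathway, was lowest at -0.36 ± 0.17 and Ldlrad4, an inhibitor of Smad phosphorylation, was highest at 0.10 ± 0.15. Genes that carry the name of bone morphogenetic proteins, Bmp1 among them, ran from Bmp5 at -0.998 ± 0.31 to Bmp3 at 0.20 ± 0.08. Bmp5 was at 0.840 ± 0.0717 CPM in CRS and 1.69 ± 0.278 CPM in Ctrl. Of these genes 6 of 7 lay below 0, of which 3 stayed below 0 with every library left out. Of the 3 tested ligands that share activin receptors or their co-factors, Gdf10 was lowest at -0.57 ± 0.29 and Gdf11 highest at 0.0050 ± 0.13.

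Marker levels of other tissues were set beside the member values. The mean log2 level of 11 meningeal fibroblast markers, relative to the Ctrl mean, was -1.19, -0.12 and -0.89 in CRS 1 to 3 and -0.28, 0.17 and 0.11 in Ctrl 1 to 3. Of these markers 10 of 11 lay below 0, their summed level was 60.9 to 192 CPM in CRS and 120.3 to 185 CPM in Ctrl, and none was at 0 in all libraries. Other lists also lay to 1 side of 0. All 16 striatal and central amygdala markers were below 0 (median log2 fold change -0.82), with CRS 1 lowest at -2.58. All 10 oligodendrocyte markers (median -0.38), all 9 astrocyte markers (median -0.22) and all 10 choroid plexus and ependymal markers (median -0.40) were below 0. All 11 excitatory neuron markers were above 0 (median 0.20), and the groups overlapped for all 11. Their mean log2 level was 0.52, 0.01 and 0.05 in CRS 1 to 3 and -0.25, -0.08 and 0.33 in Ctrl 1 to 3. CRS 1 was thus the highest library for this list, and the other CRS libraries lay within the Ctrl range. Groups were apart with CRS lower for 5 striatal, 4 meningeal, 2 oligodendrocyte, 1 astrocyte and 0 choroid plexus markers. Of all tested genes, 4.48% were. Markers of a list can vary together, so these are not counts of independent genes. The part of these lists in the Inhba value was not tested beyond fits with a list's level as a covariate. In a fit, chosen after seeing the data, with the meningeal level, Inhba was at -0.67 ± 0.25. With the striatal, choroid plexus or oligodendrocyte level as a covariate, Inhba was at -0.70 ± 0.22, -0.81 ± 0.19 and -0.78 ± 0.22.

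**Figure D4:**
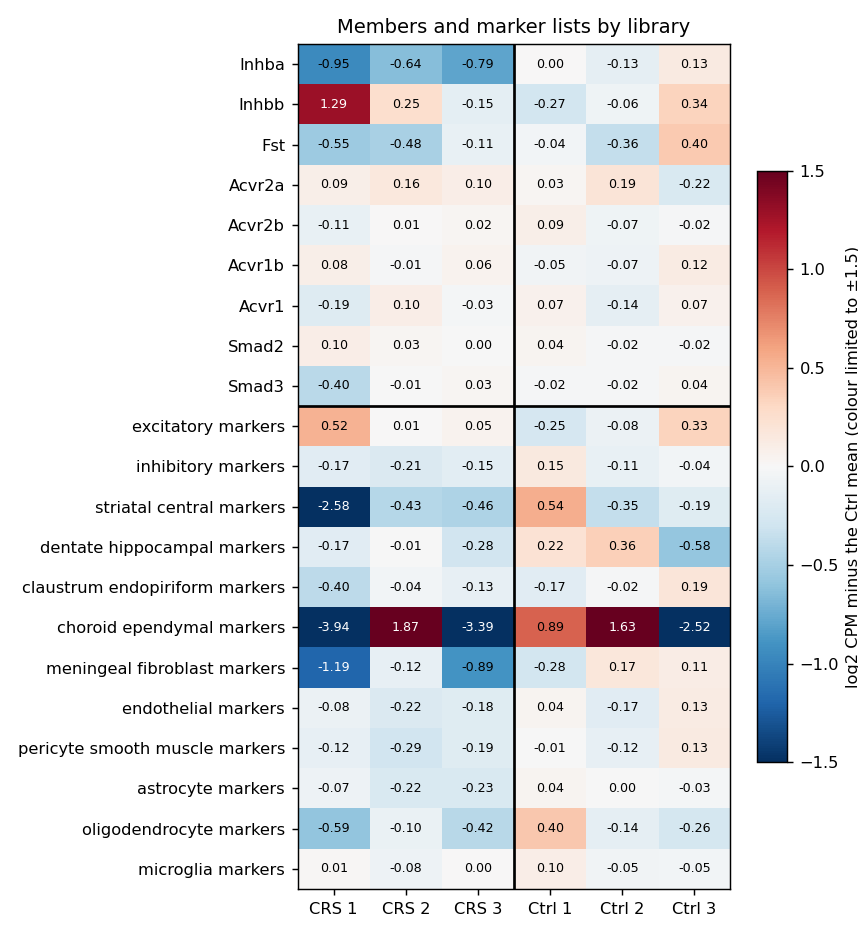
Log2 CPM minus the Ctrl mean for the 9 members (upper block) and mean values of 12 marker lists (lower block) in each library, with colour limited at 1.5 in either direction. Inhba is at -0.95, -0.64 and -0.79 in CRS 1 to 3, and CRS 1 holds the lowest striatal value, -2.58, and the highest Inhbb value, 1.29.

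The genes whose profile over the 6 libraries was most like that of Inhba were found by the root mean square distance between log2 CPM values, each gene centred on its own mean, among 14615 other genes with a mean of at least 1 CPM. They were Megf6 at a distance of 0.12, H2bc3 at 0.14, Hacd4 at 0.14, Slc6a20a at 0.14 and Rab29 at 0.15. Megf6 was at 5.43, 6.54 and 5.95 CPM in CRS 1 to 3 and at 10.6, 8.33 and 9.49 CPM in Ctrl 1 to 3. Slc6a20a, a meningeal fibroblast marker in the lists used here, was at 3.28, 5.33 and 4.07 CPM in CRS 1 to 3 and at 7.34, 7.36 and 9.59 CPM in Ctrl 1 to 3. With 6 libraries and so many genes, such likeness is a description.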

How the data were processed

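Each library came as 1 deposited file of raw counts, which the authors gave per gene symbol without pooling. Per the submitters' processing notes, the build was mm39, and the tools, with no roles stated, were HTSeq 0.13.5, STAR 2.7.7a, edgeR 3.42.4 and FastQC 0.12.1. The kit was stranded, but the labels name neither the annotation nor the strand setting of the counting, so a gene and its antisense partner may share reads. Reads outside genes (53.0 to 57.4% of reads), aligned to several places (6.97 to 8.16%) or ambiguous (0.162 to 0.194%) stayed out of library sizes and tests. Every pair of libraries differed by more than sampling noise (lowest chi-square per gene 2.95).

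The filterByExpr rule (minimum count 10, minimum total 15) left 14739 genes. CRS minus Ctrl was fitted in edgeR 4.0.16 (R 4.3.3) by the quasi-likelihood test, with TMM factors and robust estimation, and p-values were adjusted by Benjamini-Hochberg over every tested gene, with 0.05 as the threshold. Each SE is the size of the log2 fold change divided by the root of its F value. CPM uses TMM-scaled library sizes, and log2 CPM a prior count of 2. DESeq2 1.42.0 and limma 3.58.1 served as alternatives, beside other normalizations, no filter, the replicate block, libraries left out and marker levels as covariates. The procedure was tested on simulated data. P-values weigh the group difference against the spread between samples, which the fit estimates with help from all tested genes. SDs measure the spread between the 3 samples of a group, and Poisson intervals cover counting error only.

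The members and gene lists were chosen with earlier results of these data known. Named were all members, in each list of related genes the highest and lowest log2 fold change with a mean CPM of at least 1, up to 6 most abundant genes of the receptor, antagonist and Smad lists, and the 5 genes most like Inhba. Exon lengths (GENCODE M21) and promoters (RefSeq, GRCm38.p6) were matched by symbol.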

Additional observations from a re-analysis of the deposited data

How the results depend on the processing

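Inhba stayed below 0 in all 20 alternatives run (-1.03 to -0.67), as did Fst (-0.77 to -0.19). For Inhba these alternatives reuse the values by which the family was chosen. Acvr2a stayed above 0, and the other 6 members changed sign in at least 1 alternative. No member passed the threshold in any alternative; the lowest adjusted p for Inhba was 0.641 (edgeR's likelihood ratio test). The number of genes that passed was 0 in the quasi-likelihood test, 2 with DESeq2 and 4 with the likelihood ratio test, and 0 to 1 with each library left out (1 without Ctrl 3). Genes whose groups did not overlap numbered 1221, and 2115 to 3493 with each library left out, where fewer samples make separation easier by construction.

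Without CRS 1 and Ctrl 1, Inhbb was at -0.0887 and Acvr2b at 0.0611. Without the 3 libraries with the highest Ttr, which leaves Ctrl 3 as the only control, assumed to vary like the CRS libraries, Inhba was at -1.03, Fst at -0.77, Acvr2a at 0.32, Acvr1b at -0.0504 and Acvr1 at -0.18. With the striatal level as a covariate Inhbb was at -0.18, Acvr2b at 0.0589 and Smad3 at 0.0677. With the meningeal level, added after seeing the data, Inhba was at -0.67 and Smad2 at -0.0011. The cause was not tested.

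Without division by length the ratio of Inhba over Inhbb was 1.08, of Acvr2a over Acvr2b 5.03 and of Smad2 over Smad3 0.682. With the longest transcript it was 2.81 for Acvr2a over Acvr2b and 0.175 for Acvr1 over Acvr1b.

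With the replicate number as a block Inhba was at -0.82 and Inhbb at 0.51, 0 genes passed, and no call changed. The deviations of same-numbered libraries from their group means had correlations of -0.32, 0.53 and 0.28 over genes for replicates 1, 2 and 3. CRS 1 correlated best with Ctrl 3 (0.48), CRS 2 with Ctrl 2 and CRS 3 with Ctrl 3. CRS 2 and Ctrl 2 were also the 2 libraries highest in Ttr. These correlations do not settle whether same-numbered libraries were paired.

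Depth limits Fst, Inhba and Inhbb most, at 109, 346 and 377 counts over the 6 libraries.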

Other observations

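Inhba belongs to a set of genes described in mouse hippocampal neurons as induced by activity and protective against cell death. Of the 9 other genes of this set, 6 were tested, 4 lay above 0 and 2 below, with a median log2 fold change of 0.24, against -0.0044 over all tested genes. None passed the threshold (edgeR), and the groups overlapped for all 6. The highest was Btg2, an antiproliferative gene, at 0.37 ± 0.33 (SE), with 13.2, 24.9 and 19.4 CPM in CRS 1 to 3 and 9.23, 15.6 and 19.7 CPM in Ctrl 1 to 3. The lowest was Npas4, a neuronal transcription factor induced by activity, at -0.13 ± 0.39, with 12.4, 10.8 and 11.4 CPM in CRS 1 to 3 and 5.66, 14.0 and 18.2 CPM in Ctrl 1 to 3.

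Of 12 tested immediate early genes, 6 lay above 0 and 6 below, with a median of 0.02. They ran from Egr4 at -0.23 ± 0.23 to Nr4a2 at 0.42 ± 0.45. Nr4a2, also a claustrum and endopiriform marker, was at 98.8, 56.9 and 39.3 CPM in CRS 1 to 3 and at 30.6, 45.5 and 69.3 CPM in Ctrl 1 to 3, with CRS 1 highest.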
